A study of Mus musculus with 2 samples.

Results

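Among CD8+ T cells sorted from B16-F0 melanoma tumors, a subset carried transcripts of the granzymes encoded between *Gzme* and *Gzmc* on mouse chromosome 14. The cells were selected on the summed unique molecular identifiers (UMIs, each marking 1 captured RNA molecule) of 6 genes, *Gzmc*, *Gzmd*, *Gzme*, *Gzmf*, *Gzmg* and *Gzmn*, with at least 3 such UMIs required in a cell. Of 4745 cells that passed the quality limits, 358 met this rule, 279 of 2456 in the lean library and 79 of 2289 in the obese library. Since the 6 genes chose the cells, their values below describe the cells and are not a finding about them.

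The lean library came from C57Bl/6J mice on normal chow and the obese library from C57Bl/6J mice on western diet, a feed high in fat and sugar. In both groups the mice were male, 16 weeks old, had been on their diet for 12 weeks and carried transplanted B16-F0 tumors, a melanoma line of the same mouse strain, which were taken on day 14. CD8+ tumor-infiltrating lymphocytes (TIL) were enriched on magnetic beads, sorted on CD8 staining and captured for droplet 3′ RNA sequencing, in 1 library per group. The number of mice in a library is not given in the sources used here, there are no replicates, and diet cannot be told apart from any other difference between the libraries. No test between the libraries was therefore run, and every interval covers counting error only.

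The selected cells held 6788361 UMIs in the lean library and 2409719 in the obese library. Levels are given as CPM, the UMIs of a gene summed over a set of cells per 1000000 UMIs of those cells. In 3′ sequencing a transcript is counted once whatever its length, so that CPM values of different genes are on 1 scale per molecule. Intervals are 95% and exact, Poisson for CPM, Clopper-Pearson for shares of cells and conditional binomial for log2 ratios, and they cover counting error only.

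Granzymes are serine proteases that cytotoxic lymphocytes store in granules and release onto a target cell, where perforin lets them enter. Granzyme B is the best known of them and triggers cell death by cleaving caspases and other proteins after aspartate. The neighbouring mouse genes *Gzmc*, *Gzmd*, *Gzme*, *Gzmf*, *Gzmg* and *Gzmn* arose by duplication, have no one-to-one human counterparts, and are known from strongly or repeatedly stimulated mouse T and NK cells, while *Gzmn* is known mainly from the testis. In the GENCODE annotation of GRCm38 all 6 genes lie on the minus strand of chromosome 14 within 117 kb. From low to high coordinates these were *Gzme* (chr14:56117626-56120625), *Gzmd* (chr14:56129556-56132608), *Gzmg* (chr14:56156582-56159579), *Gzmn* (chr14:56165797-56174599), *Gzmf* (chr14:56205263-56211417) and *Gzmc* (chr14:56231441-56234656), with *Gzmb* next to them at chr14:56258838-56262260.

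The promoters are shown because 5 of the 6 genes were detected in the selected cells and 1, *Gzmn*, was not. Below are the 250 bases before the RefSeq start of the 2 genes with the most UMIs, *Gzmc* and *Gzmf*, of *Gzme*, and of *Gzmn*, in GRCm38.p6, read 5′ to 3′ on the minus strand. Their positions are chr14:56234658-56234907 for *Gzmc*, chr14:56211408-56211657 for *Gzmf*, chr14:56120626-56120875 for *Gzme* and chr14:56174600-56174849 for *Gzmn*. Capitals mark TGTGGT, the core letters bound by RUNX transcription factors, and its reverse complement ACCACA.
Gzmc: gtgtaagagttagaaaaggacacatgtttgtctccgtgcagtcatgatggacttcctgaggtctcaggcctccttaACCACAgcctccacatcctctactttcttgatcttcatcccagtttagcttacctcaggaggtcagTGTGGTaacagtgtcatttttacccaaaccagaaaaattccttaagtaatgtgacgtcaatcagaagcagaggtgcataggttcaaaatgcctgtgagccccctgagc
Gzmf: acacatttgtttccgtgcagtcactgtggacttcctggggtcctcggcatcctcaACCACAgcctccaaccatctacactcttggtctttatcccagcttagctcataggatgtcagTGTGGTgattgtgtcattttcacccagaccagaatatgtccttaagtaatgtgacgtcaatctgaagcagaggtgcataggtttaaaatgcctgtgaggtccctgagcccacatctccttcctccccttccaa
Gzme: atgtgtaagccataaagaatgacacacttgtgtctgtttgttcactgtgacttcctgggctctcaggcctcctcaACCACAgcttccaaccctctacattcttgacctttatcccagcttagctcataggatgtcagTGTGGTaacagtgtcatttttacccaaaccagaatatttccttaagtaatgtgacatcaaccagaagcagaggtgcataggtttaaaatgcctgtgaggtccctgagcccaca
Gzmn: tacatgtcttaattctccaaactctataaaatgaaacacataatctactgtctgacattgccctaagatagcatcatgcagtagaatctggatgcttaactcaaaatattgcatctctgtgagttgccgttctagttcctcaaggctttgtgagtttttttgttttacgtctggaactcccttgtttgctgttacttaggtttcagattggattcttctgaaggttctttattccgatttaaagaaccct

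Each window upstream of *Gzmc*, *Gzmd*, *Gzme*, *Gzmf*, *Gzmg* and *Gzmb* held 2 matches to TGTGGT on either strand, and that of *Gzmn* held 0. Of 32851 promoter windows of this length in the RefSeq table, 14.05% held at least 1 match. The window of *Gzmd* was 94.8% identical to that of *Gzme*, and the window of *Gzmn* was 48.8% to 52.4% identical to those of the other 5 genes. The window of *Gzmb*, which was abundant in the selected cells, was 47.3% to 52.4% identical to those 5. Low identity was thus not particular to *Gzmn*. The 5 windows were 71.5% to 94.8% identical to each other, so that their matches are not separate observations. TATAAA was found in the *Gzmn* window alone among the windows of the 6 genes and *Gzmb* (12.4% of all windows), the AP-1 letters TGANTCA in the *Gzmb* window alone (6.75% of all windows), and the T-box letters GGTGTGA in none (3.33% of all windows). These letter matches describe the sequences and do not show binding.

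The selected cells made up 11.4% of the kept lean cells (10.1% to 12.7%) and 3.45% of the kept obese cells (2.74% to 4.28%). In the lean library 431 cells (17.5%) held at least 1 UMI of the 6 genes, 184 (7.49%) at least 10 and 54 (2.20%) at least 100. In the obese library these counts were 154 (6.73%), 51 (2.23%) and 7 (0.306%). At each of these levels the share was higher in the lean library, a description that rests on the UMIs the rule used. The 31 lean and 4 obese cells with exactly 3 UMIs were the members closest to the limit, and 40 lean and 21 obese cells with exactly 2 UMIs lay just outside it. Lean cells on either side of the limit were alike in depth, with a median of 20869 UMIs at exactly 3 and 21587.5 at exactly 2, and they held 1475 and 1907 CPM of *Gzmb*. The obese cells had medians of 26712 UMIs at exactly 3 and 21401 at exactly 2 and went the other way, with 1784 and 1077 CPM of *Gzmb*.

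**Figure D1:**
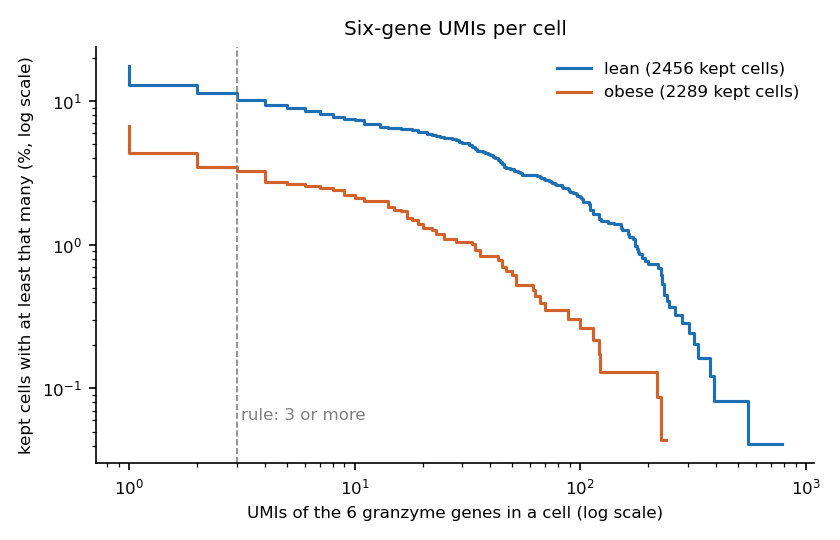
Share of kept cells (percent, log scale) that held at least a given number of UMIs of *Gzmc*, *Gzmd*, *Gzme*, *Gzmf*, *Gzmg* and *Gzmn* together (log scale), as 1 line per library, with the limit of 3 UMIs dashed. The lean line lies above the obese line throughout, with 11.4% against 3.45% of cells at the limit and 2.20% against 0.306% at 100 UMIs.

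A rule on a number of UMIs takes more cells from those captured deeply, and the selected cells were deep. Their median was 23423 UMIs and 4097 genes in the lean library and 31027 UMIs and 4740 genes in the obese library, against 7413 and 8824 UMIs in the other kept cells. Among kept cells of 20000 to 50000 UMIs the selected share was 44.0% (164 of 373) for lean and 14.9% (62 of 416) for obese. It was 17.5% against 2.66% among cells of 10000 to 20000 UMIs and 1.44% against 0.116% among those of 5000 to 10000. The lean share was thus higher in each of these 3 depth classes, and within a library the share was higher in each deeper class. When each cell was thinned to 2000 UMIs, the expected share with at least 3 UMIs of the 6 genes was 5.50% of 2330 lean cells and 1.06% of 2177 obese cells, with 126 lean and 112 obese cells too shallow to be thinned.

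Free RNA in the droplets can give stray UMIs. Cells with at least 3 UMIs of *Lef1* and *Ccr7* together, genes of naive T cells that should lack these granzymes, met the granzyme rule in 12 of 355 lean cells (3.38%) and 4 of 407 obese cells (0.983%), at median depths of 8262 and 9569 UMIs. Those shares were below the 11.4% and 3.45% over all kept cells, in which the median depths were 7958 and 9103 UMIs. The *Lef1* and *Ccr7* cells give no clean level of stray RNA. A UMI of *Gzmb* was found in 94 lean and 102 obese ones, and the richest held 83 and 28 UMIs of the 6 genes. The selected cells held 98.8% of all UMIs of the 6 genes in kept lean cells and 96.5% in kept obese cells, with the rest in cells of 1 or 2 such UMIs.

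The sort on CD8 was matched by the transcripts. A UMI of *Cd8a* or *Cd8b1* was found in 276 of 279 lean and 79 of 79 obese selected cells, and a UMI of *Cd3d*, *Cd3e* or *Cd3g* in all 279 and all 79. A UMI of at least 1 of *Cd79a*, *Lyz2*, *Cd4*, *Pmel*, *H2-Aa* or *Siglech*, which mark other cell types, was found in 30 lean selected cells (10.8%) and 9 obese ones (11.4%), against 3.45% and 5.07% of the other, shallower cells. Of the cell barcodes, 4 occurred in both libraries, and 0 of these marked a selected cell.

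Of the 6 granzymes, *Gzmf* was the most abundant in lean selected cells and *Gzmc* in obese ones. *Gzmf* had 8011 UMIs in lean cells, 1180 CPM (1154 to 1206), and 602 UMIs in obese cells, 250 CPM (230 to 271). *Gzmc* had 5196 UMIs in lean cells, 765 CPM (745 to 787), and 1519 in obese cells, 630 CPM (599 to 663). *Gzmf* was thus lower in the obese selected cells (log2 obese over lean −2.24, −2.36 to −2.12), and *Gzmc* was at −0.28 (−0.36 to −0.20). The *Gzmc* ratio rested on which cells were counted: with the cells of 50000 or more UMIs taken in it was −1.19, and without the 10 selected cells of each library richest in the 6 genes −0.84, where *Gzmf* was at −2.36 and −2.48. *Gzmd* had 198 CPM in lean and 59.8 CPM in obese cells (log2 −1.73, −1.99 to −1.48), and its close relative *Gzme* had 164 and 142 CPM (log2 −0.21, −0.39 to −0.03). In these alternatives *Gzme* was at −0.84 and −1.23, and *Gzmd* at −1.94 and −1.83. Among selected cells under the cycling limit given below, *Gzmc* was 885 CPM in lean and 860 CPM in obese cells and *Gzme* 264 and 273 CPM. *Gzmc* and *Gzme* were thus about level there, whereas *Gzmf* was 1669 and 392 CPM and *Gzmd* 376 and 129 CPM.

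*Gzmg* stood apart from the other detected genes. It had 390 UMIs in 14 lean cells and 3 UMIs in 2 obese cells (log2 −5.53, −7.81 to −3.97), and 1 lean cell alone held 61.5% of the lean UMIs. *Gzmn* had 0 UMIs in either library, which allows up to 0.442 CPM in lean and 1.24 CPM in obese selected cells (3 counts over the selected cells of a library). The 6 genes together came to 2365 CPM in lean and 1083 CPM in obese selected cells (log2 −1.13, −1.19 to −1.07). Over all kept cells, where the number of selected cells also counts, the sum was 584 and 94.3 CPM (log2 −2.63, −2.69 to −2.57). These sums turn on few or deep cells: without the 10 selected cells of each library richest in the 6 genes the ratio within selected cells was −1.66, and with the cells of 50000 or more UMIs taken in it was −1.70.

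The transcripts of these genes are alike, so that counting may have split reads between copies and the single-gene values are uncertain to that extent. The transcripts of *Gzmd* and *Gzme* were 90.4% identical over their length and 84.0% over the last 300 bases, and those of *Gzmf* and *Gzmg* 87.9% and 88.2%. *Gzmc* was 66.1% to 71.4% identical to the other 5 genes over the length and 48.7% to 54.0% over the last 300 bases. The antisense gene *Gm4022* overlaps *Gzmn* and *Gzmf* on the plus strand (chr14:56173751-56207735), and the strand setting of the counting is not given in the sources used here.

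**Figure D2:**
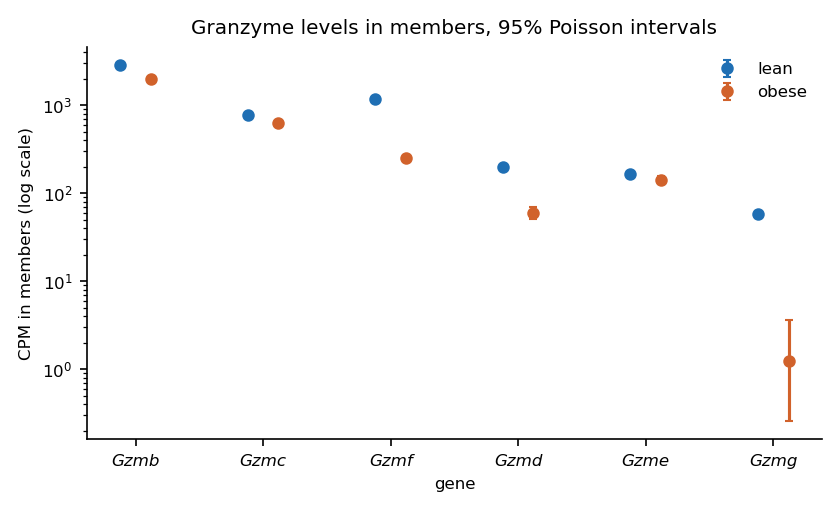
Levels of *Gzmb* and of the 5 detected selecting granzymes in selected cells, titled members (CPM, log scale), with 1 point per library and 95% Poisson intervals as bars. *Gzmb* was the most abundant granzyme in both libraries, *Gzmf* was 1180 CPM in lean and 250 CPM in obese cells, and *Gzmg* was 57.5 and 1.24 CPM.

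Single cells differed in which granzyme they used. *Gzmf* led in 157 of 279 lean selected cells (56.3%) and *Gzmc* in 110 (39.4%), whereas in obese cells *Gzmc* led in 50 of 79 (63.3%) and *Gzmf* in 19 (24.1%). Just 1 of the 6 genes was detected in 101 lean (36.2%) and 29 obese selected cells (36.7%). A UMI of *Gzmc* was found in 81.7% of lean and 92.4% of obese selected cells, and a UMI of *Gzmf* in 74.6% and 55.7%. The 10 cells richest in these granzymes held 23.98% of the lean UMIs of the 6 genes and 52.3% of the obese ones, so that the obese sums rest on few cells.

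*Gzmd* and *Gzme* were often found in the same cells. Of the 81 lean cells with *Gzmd*, 62 had *Gzme*, 76 had *Gzmc* and 72 had *Gzmf*. Of the 22 obese cells with *Gzmd*, 15 had *Gzme*, 20 had *Gzmc* and 15 had *Gzmf*. For *Gzmc* this was 93.8% of the lean and 90.9% of the obese *Gzmd* cells, beside 81.7% and 92.4% of all selected cells. All 14 lean cells with *Gzmg* also had *Gzmc*, *Gzmd* and *Gzme*. Across selected cells, which share their library and differ in depth, the log levels of *Gzmd* and *Gzme* had a Pearson r of 0.85 in lean and 0.68 in obese cells, and those of *Gzmc* and *Gzmf* 0.05 and −0.02.

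Grouped by their UMIs of the 6 genes, 95 lean selected cells held 3 to 9, 56 held 10 to 29, 74 held 30 to 99 and 54 held 100 or more. The obese selected cells fell into these classes as 28, 27, 17 and 7 cells. *Gzmd* was 4.78 and 6.93 CPM in the lower pair of lean classes, then 72.4 and 820 CPM in the upper pair. In obese cells it was 14.1, 3.68, 130 and 271 CPM in the same order. *Gzmc* had 128 CPM in the lowest lean class and 127 CPM in the lowest obese class. Both genes are part of the sum that cuts the classes, so that their order over the classes is partly built in.

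*Gzmb*, which the rule did not use, followed the classes in part. It was 1920, 3256, 2569 and 4020 CPM over the 4 lean classes and 1597, 1815, 2436 and 3113 CPM over the 4 obese ones, against 726 and 461 CPM in cells with 0 UMIs of the 6 genes. *Prf1*, which encodes perforin, went from 640 to 1137 CPM over the lean classes, and its obese values of 544, 482, 1048 and 916 CPM did not follow the order. *Ldha*, the lactate dehydrogenase of glycolysis, *Ccl5*, a T cell chemokine, and *Il7r*, the receptor for the survival cytokine IL-7, differed mainly between cells with 0 UMIs and the lowest class. *Il7r* was 123 CPM in lean cells with 0 UMIs and 22.9 to 35.6 CPM in the lean classes, and *Ldha* was 706 CPM and 1237 to 1377 CPM. These levels were not particular to selected cells, as lean cells with exactly 2 UMIs, outside the rule, had 35.0 and 1285 CPM. Obese cells with exactly 2 UMIs had 34.9 CPM of *Il7r* and 1094 CPM of *Ldha*, against 107 and 610 CPM at 0 UMIs.

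**Figure D3:**
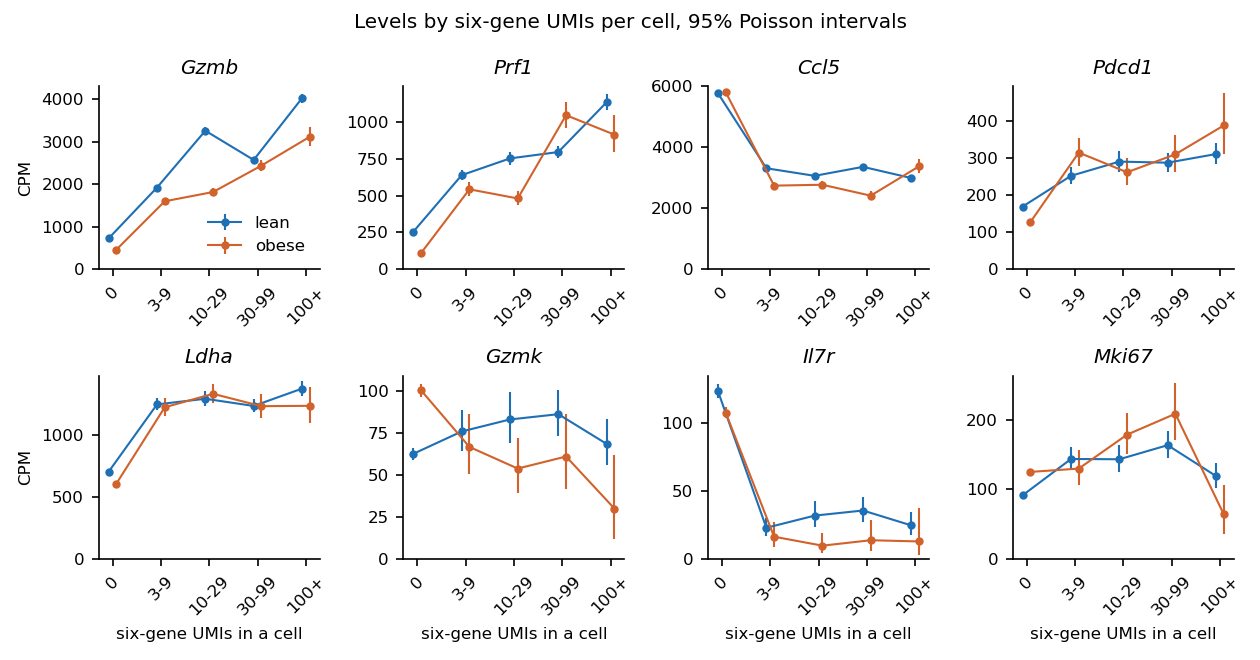
Levels of 8 genes (CPM, linear scales from 0) in kept cells grouped by their UMIs of the 6 granzymes, 0 and the 4 classes of selected cells, with 1 line per library and 95% Poisson intervals as bars. *Gzmb* and *Prf1* were higher in selected cells of every class than at 0 UMIs, *Ccl5* and *Il7r* were lower, and the obese class of 100 or more UMIs holds 7 cells.

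Beyond the granzymes, the locus holds mast cell and neutrophil proteases. Of *Ctsg*, *Mcpt1*, *Mcpt2*, *Mcpt4*, *Mcpt8*, *Mcpt9*, *Cma1* and *Cma2*, *Mcpt8*, a protease of basophils, was the only one with UMIs in selected cells, with 13 UMIs in 12 lean cells and 3 UMIs in 2 obese cells. In the other kept cells it had 0 UMIs. The remaining mast cell and basophil markers *Cpa3*, *Cma1*, *Tpsb2* and *Ms4a2* were at 0 UMIs in selected cells. *Kit*, the receptor for stem cell factor, had 10.5 CPM in lean selected cells against 3.85 CPM in other lean cells, and 14.1 against 2.59 CPM in the obese library, in 38 lean and 15 obese selected cells. The 6 mast cell and basophil markers together were 12.4 against 3.90 CPM in lean and 15.4 against 2.62 CPM in obese cells, led by *Kit*.

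Marker lists of myeloid, B, NK and CD4 T cells were lower than in the other cells of both libraries, whereas that of mast cells and basophils was higher. The 7 myeloid markers summed to 13.6 CPM in lean and 9.96 CPM in obese selected cells against 26.0 and 23.6 CPM in other cells, with *Cd68* as the most abundant (7.81 and 6.22 CPM) and *S100a9* at 0. The 4 B cell markers summed to 16.2 and 16.6 CPM against 48.8 and 69.1 CPM, nearly all from *Ighm* (14.7 and 14.9 CPM), with *Ms4a1* at 0. The 5 melanoma markers summed to 7 UMIs in lean and 1 UMI in obese selected cells (1.03 and 0.415 CPM against 0.571 and 1.06 CPM), with 2 lean UMIs each of *Pmel*, *Mlana* and *Dct*, the obese UMI from *Pmel*, and *Tyr* at 0. These 3 lists thus held little RNA in the selected cells. The 5 NK markers summed to 27.5 and 21.2 CPM against 35.7 and 54.7 CPM, nearly all from *Eomes*, which CD8+ T cells also express, and *Klra8* was at 0. The 6 dendritic cell markers summed to 387 and 312 CPM against 237 and 313 CPM, led by *Irf8* (255 and 178 CPM), which T cells also express, and in lean the sum was higher in selected than in other cells. *Siglech* had 16 UMIs and *Flt3* 4 UMIs in lean selected cells, each all in 1 cell, and both were at 0 in obese ones. *Irf8* and *Eomes*, effector T cell factors, made up most of these sums. The 3 CD4 T cell markers summed to 2.50 and 0.830 CPM against 6.18 and 5.59 CPM, with *Cd4* itself at 7 and 1 UMIs. The 5 gamma-delta markers summed to 24.7 and 48.6 CPM against 29.2 and 28.1 CPM, nearly all from *Tcrg-C2*, a constant segment gene, with *Trdv4* and *Sox13* at 0. Leaving out every cell with a UMI of *Cd79a*, *Lyz2*, *Cd4*, *Pmel*, *H2-Aa* or *Siglech* moved none of the shares and summed levels recomputed that way beyond their intervals, and the part of other cells in single genes below was not tested.

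Selected cells were then set against all other kept cells of their own library. A gene was called where its log2 ratio was past 1 in the same direction in both libraries, among 5422 genes with at least 20 CPM on 1 side, the 6 granzymes left out. By this rule 32 genes were higher in selected cells (0.59% of genes) and 109 lower (2.01%), and the median log2 ratio of all genes was 0.10. Some called genes met the limit of 20 CPM through 1 set of cells alone. *Gzma*, *Cxcl10*, *Socs3* and *Rtp4* did so through the other cells, and *Ccl9* and *Csf2* through the selected ones. Such calls are partly set by that limit. With each cell thinned to 2000 UMIs, 129 lean and 19 obese cells still met the rule. The balance then turned, to 274 genes higher and 62 lower, of which 55 were among the 141 called here. A gene without UMIs on a side has no ratio and could not be called. In those 19 obese cells 1 UMI is 26.3 CPM, above the limit of 20 CPM. The selected cells were also deeper, and some ratios are repeated below for cells of at least 10000 UMIs, 260 selected and 663 other cells in lean and 78 and 939 in obese. This lessens the gap in depth without closing it, as the medians were then 24196 against 15712 UMIs in lean and 31070 against 16685 in obese. Of 19 granule genes measured, 5 were called higher, *Gzmb*, *Prf1*, *Serpinb9*, *Serpinb6b* and *Serpinb9b*, and 1 lower, *Gzma*, with a median of 0.28 over the 19.

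*Gzmb* had 2827 CPM in lean selected cells and 822 CPM in other lean cells (log2 1.78, 1.75 to 1.81). In obese cells it had 1994 and 489 CPM (log2 2.03, 1.98 to 2.07). Perforin transcripts were also higher, with *Prf1* at 813 against 290 CPM in lean (log2 1.49) and 665 against 125 CPM in obese cells (log2 2.41). In cells of at least 10000 UMIs the ratios were 1.44 and 1.85 for *Gzmb*, 1.07 and 2.16 for *Prf1*, 2.41 and 5.41 for *Serpinb9b*, −2.88 and −4.54 for *Gzma*, 1.997 and 2.18 for *Ccl9*, 1.06 and 1.37 for *Spp1* and 1.69 and 1.06 for *Mt1*.

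Inhibitors of granzymes were higher beside the proteases. *Serpinb9*, which encodes a cytosolic inhibitor of granzyme B, had 137 against 48.9 CPM in lean cells and 122 against 28.2 CPM in obese cells (log2 1.49 and 2.11). Its relatives *Serpinb6b* and *Serpinb9b* had log2 ratios of 1.42 and 2.30, and of 3.001 (2.76 to 3.24) and 5.28 (4.60 to 6.02). *Serpinb9b* came from 68 lean and 9 obese selected cells, with 37.8% of the obese UMIs in 1 cell.

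*Gzma*, the tryptase of the family, which lies on another chromosome, went the other way. It had 11.2 CPM in lean selected cells against 137 CPM in other lean cells (log2 −3.61, −3.96 to −3.28), and 2.07 against 88.8 CPM in obese cells (log2 −5.42, −7.04 to −4.19). *Gzmk*, a further tryptase, had 78.7 against 65.5 CPM in lean and 57.7 against 97.3 CPM in obese cells, so that its direction differed between the libraries (log2 0.26 and −0.75). The general granule genes differed little, with *Nkg7* at 0.20 and 0.09 and the granule proteoglycan gene *Srgn* at 0.11 and 0.32.

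**Figure D4:**
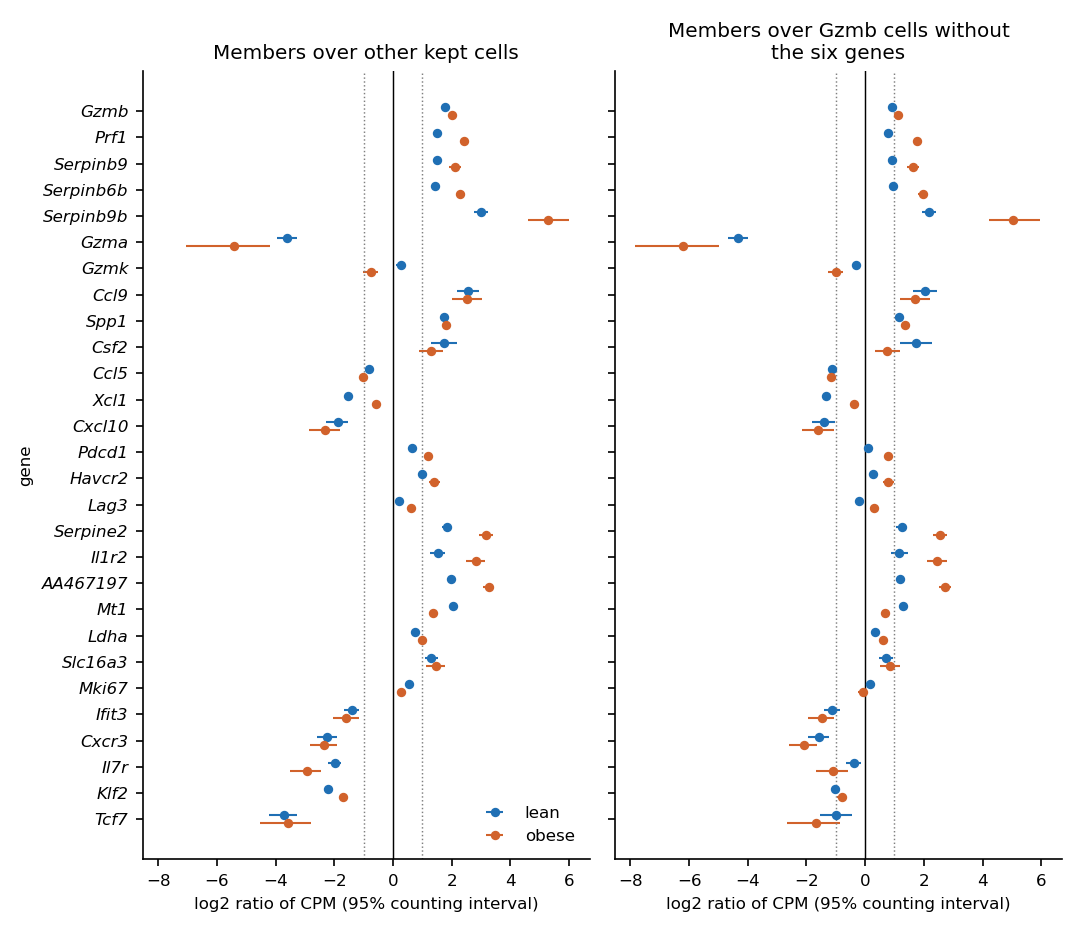
log2 ratios of CPM in selected cells over all other kept cells (left) and over *Gzmb* cells that did not meet the granzyme rule (right), with the selected cells titled members, for 28 genes in each library, with 95% counting intervals as bars and dotted lines at 1 and −1. *Gzmb*, *Prf1* and *Serpinb9b* lie right of 0 and *Gzma* and *Cxcr3* left of 0 in both libraries and both panels, whereas *Gzmk* lies on either side of 0 in the left panel.

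Of 16 cytokine and chemokine genes, 3 were called higher and 1 lower. *Ccl9*, a chemokine for myeloid cells, had 27.4 against 4.66 CPM in lean and 22.0 against 3.80 CPM in obese cells (log2 2.56 and 2.53), and *Spp1*, which encodes osteopontin, 193 against 57.8 and 270 against 77.8 CPM (log2 1.74 and 1.79). *Csf2*, the gene of GM-CSF, had 13.3 against 3.95 and 25.7 against 10.4 CPM, but 1 obese cell held 72.6% of its obese UMIs, and without the richest cell of each library it was the only one of the 32 higher genes that no longer passed the limit. *Cxcl10*, an interferon-induced chemokine, was lower (log2 −1.88 and −2.32). *Ifng*, the effector cytokine, had 682 against 547 CPM in lean and 659 against 513 CPM in obese cells, a log2 of 0.32 and 0.36 that did not reach the limit for a call. *Ccl5* was less abundant in selected cells (log2 −0.81 and −1.03, and −0.24 and −0.58 in cells of at least 10000 UMIs), and *Xcl1*, a chemokine for cross-presenting dendritic cells, was at −1.52 in lean and −0.57 in obese cells.

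Of 10 genes listed as inhibitory receptors, 1 was called higher, *Cd244a* (log2 1.18 and 1.47), with a median of 0.49 over the 10. *Pdcd1*, which encodes PD-1, had 282 against 180 CPM in lean and 302 against 131 CPM in obese cells (log2 0.65 and 1.20). *Havcr2*, which encodes Tim3, was at 0.98 and 1.41, and *Lag3* at 0.21 and 0.63. Of 10 costimulatory receptor genes 0 were called at this limit, and *Tnfrsf9*, which encodes 4-1BB, and *Tnfrsf4*, which encodes OX40, had the highest ratios, at 0.86 and 1.497 and at 0.87 and 1.22. Of 7 NK-type receptor genes and 20 effector transcription factors 0 were called, among them *Tbx21* (−0.03 and −0.39) and *Tox* (0.12 and 0.03). Of the 11 genes of the T cell receptor complex and CD8, 0 were called and the median was 0.02.

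Naive and memory genes were lower where they could be compared. Of the 15 genes of this list, 12 had enough counts on either side, and all 12 were called lower, with a median log2 ratio of −2.55. The rest of the list was not compared. Genes scarce in selected cells, as *Tcf7* and *S1pr1* below, met the limit on counts through the other cells alone. The share of the list called lower is thus partly set by that limit. *Tcf7*, the transcription factor of stem-like and memory T cells, had 5.598 against 73.8 CPM in lean and 4.98 against 60.0 CPM in obese cells (log2 −3.72 and −3.59). *S1pr1*, the receptor for exit from tissues, had 2.65 against 43.0 and 2.90 against 40.4 CPM, and *Klf2*, the quiescence factor that drives it, 136 against 631 and 190 against 622 CPM. In cells of at least 10000 UMIs *Tcf7* was at −2.56 and −2.86, and *Klf2* at −1.11 and −1.06.

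Homing and early activation genes were also lower in part. Of 12 adhesion and migration genes 3 were called lower, the integrin genes *Itgb1* and *Itgb7* and the retention marker *Cd69*, at −1.06 and −1.25, −1.92 and −1.79, and −1.29 and −1.36. *Cxcr6*, a chemokine receptor of tissue T cells, was at 0.63 and 0.60. Of 18 immediate early and heat shock genes, which respond to recent stimulation and to handling of cells, 4 were called lower, *Fos*, *Junb*, *Dusp1* and *Zfp36*, with a median of −0.34 over the 18. *Fos*, a subunit of AP-1, had 130 against 375 CPM in lean and 178 against 530 CPM in obese cells. In cells of at least 10000 UMIs *Fos* was at −0.80 and −1.21 and *Junb* at −0.31 and −0.67. Of 13 cytokine receptor and feedback genes 1 was called, *Socs3*, an inhibitor of cytokine signalling, which was lower (−2.71 and −2.67).

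Of 17 glycolysis genes 1 was called, *Slc16a3*, the lactate exporter MCT4 (log2 1.30 and 1.46), and the median over the 17 was 0.76. *Ldha* had 1284 against 757 CPM in lean and 1267 against 643 CPM in obese cells, and in cells of at least 10000 UMIs its log2 ratios were 0.40 and 0.70. Of 9 metallothionein and hypoxia genes 4 were called higher, *Mt1*, *Mt2*, *Bnip3* and *Ero1l*, with a median of 1.14. *Mt1*, a zinc-binding protein gene, had 823 against 201 CPM in lean and 319 against 125 CPM in obese cells.

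Of 9 type I interferon genes 3 were called lower, *Ifit3*, *Irf7* and *Rtp4*, with a median of −0.89. *Ifit3*, an antiviral effector gene, had 21.4 against 56.1 CPM in lean and 19.9 against 59.8 CPM in obese cells (log2 −1.39 and −1.59). In cells of at least 10000 UMIs it was at −0.19 and −0.57, a smaller difference than over all depths.

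Cycling was set beside that of other cells. A cell was called cycling where 20 S phase and 20 mitosis genes held at least 0.2% of its UMIs, which held for 149 lean (53.4%, 47.4% to 59.4%) and 47 obese selected cells (59.5%, 47.9% to 70.4%), against 19.2% and 28.0% of other kept cells. Depth was not matched here: of the cells just outside the rule, with exactly 2 UMIs of the 6 genes and medians of 21587.5 and 21401 UMIs, 47.5% of 40 lean and 57.1% of 21 obese cells were cycling. This is a limit on a range of values and not a cell type, and 43 lean and 14 obese selected cells lay within a factor of 1.5 of it. No gene of 20 for S phase or 19 for mitosis passed the limit for a call, and the medians were 0.48 and 0.51. *Mki67*, a gene of proliferating cells, had 144 against 97.6 CPM in lean and 157 against 129 CPM in obese cells.

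The granzyme transcripts were denser in the selected cells that did not cycle. The 6 genes came to 1809 CPM in the 149 lean cycling cells and 3327 CPM in the 130 others, and to 797 CPM in the 47 obese cycling cells and 1658 CPM in the 32 others. *Gzmb* was 2412 and 3544 CPM in the lean pair and 1503 and 2979 CPM in the obese pair. The cycling cells were deeper, with medians of 29008 and 34683 UMIs against 16722.5 and 22880.

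The nearest cells for comparison were those with at least 3 UMIs of *Gzmb* and under 3 of the 6 granzymes, 799 lean and 762 obese cells with medians of 11010 and 15184 UMIs. Their own rule sets a floor on *Gzmb*, so that its ratio to them is partly fixed. Of 5326 genes, 10 were called higher in the selected cells (0.188%) and 17 lower (0.319%), with a median of 0.01 over all genes. With each cell thinned to 2000 UMIs 197 were higher and 20 lower, of which 10 were among these 27. Here too a gene without UMIs in the thinned selected cells could not be called lower. The 10 higher genes were *Serpinb9b*, *Gipc2*, *Myo10*, *AA467197*, *Serpine2*, *Ccl9*, *Il1r2*, *Igfbp7*, *Tubb6* and *Spp1*, of which *Gipc2*, *Myo10*, *Igfbp7* and *Tubb6* are named as the rest of a count after their values were seen.

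*AA467197*, which encodes a small mitochondrial protein, had 297 CPM in lean and 186 CPM in obese selected cells, in 259 and 62 of the cells, with log2 ratios to the *Gzmb* cells of 1.19 and 2.72. *Serpine2*, a secreted inhibitor of serine proteases, had 93.98 and 116 CPM (1.24 and 2.56), and *Il1r2*, the decoy receptor for interleukin-1, 35.8 and 57.3 CPM (1.16 and 2.45). *Ccl9* was at 2.04 and 1.71 and *Spp1* at 1.16 and 1.37 in the same comparison. For *Spp1*, 1 obese cell held 36.2% of the obese UMIs, and without the richest cell of each library its ratios were 1.03 and 0.74, so that *Spp1*, like *Igfbp7*, no longer passed the limit. *Gldc*, the glycine cleavage enzyme, was among the highest by mean ratio but was not called, at 0.96 in lean and 1.83 in obese cells. When cells of at least 10000 UMIs were compared, *AA467197*, *Serpine2* and *Il1r2* were still higher in selected cells, at 1.12 and 2.66, 1.06 and 2.43, and 0.995 and 2.30.

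The 17 genes that were lower against the *Gzmb* cells included *Gzma* (log2 −4.33 and −6.20), *Ccl5* (−1.15 and −1.16), *Cxcl10* (−1.41 and −1.60), *Socs3* (−1.06 and −1.52), *Itgb7* (−1.01 and −1.18), *Ifit3* (−1.13 and −1.48) and *Cxcr3* (−1.58 and −2.09), the receptor for interferon-induced chemokines. In cells of at least 10000 UMIs *Ifit3* was at −0.31 and −0.41 and *Cxcr3* at −0.94 and −1.83.

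Some lists lay closer to 0 against the *Gzmb* cells than against all other cells, and others did not. Of 10 genes listed as inhibitory receptors, 20 effector transcription factors, 20 S phase genes, 19 mitosis genes and 17 glycolysis genes 0 were called, with medians of 0.16, −0.01, 0.06, 0.04 and 0.46. Of the *Gzmb* cells 33.7% in lean and 47.5% in obese were cycling, below the 53.4% and 59.5% of the selected cells. Of 7 naive and memory genes 1 was called lower, *Cxcr3*, and of 9 type I interferon genes 1, *Ifit3*, with medians of −0.92 and −0.91 (−2.55 over 12 genes and −0.89 against all other cells). Of 8 metallothionein and hypoxia genes 0 were called, with a median of 0.84. *Pdcd1* was at 0.11 and 0.78 and *Ifng* at −0.29 and −0.05 in this comparison.

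Between the libraries, the selected cells were compared by the log2 ratio of obese over lean, with a gene called where it was past 0.5 and its counting interval left out 0. A call describes the size of a difference between these 2 libraries and tests nothing about diet, and by size alone 244 genes were higher and 211 lower, with the same counts in each list. Of 5113 genes, 242 were higher in obese selected cells (4.73%) and 209 lower (4.09%), with a median of 0.03. With each cell thinned to 2000 UMIs 124 were higher and 30 lower, of which 40 were among these 451. A gene without UMIs in the thinned selected cells of a library could not be called. The obese side rests on 79 cells, and most ratios are set beside the same ratio in the other kept cells. *Gzmb* had 2827 CPM in lean and 1994 CPM in obese selected cells (log2 −0.50, −0.55 to −0.46), and −0.75 in the other cells. With the cells of 50000 or more UMIs taken in, its ratio within selected cells was −0.97, and among the selected cells that did not cycle it was −0.25. *Prf1* was at −0.29 (−0.37 to −0.21) in selected cells and −1.21 in the others. By cycling, *Prf1* was 647 and 472 CPM in selected cells that cycled and 1100 and 1053 CPM in those that did not.

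Of 18 granule genes 0 were called higher and 5 lower in obese selected cells, *Gzmb*, *Serpinb9b*, *Lamp1*, *Ctsw* and *Fasl*, with a median of −0.29 against −0.17 in the other cells. Of 6 NK-type receptors 3 were lower, *Klrc1*, *Klre1* and *Fcer1g*, with medians of −0.53 and −0.56. *Klrc1*, which encodes the inhibitory receptor chain NKG2A, had 305 CPM in lean and 178 CPM in obese selected cells (log2 −0.78), and −0.80 in the other cells. *Ifng* was at 682 and 659 CPM in the selected cells (log2 −0.05, −0.13 to 0.03) against −0.09 in the others, and *Pdcd1* was 282 and 302 CPM (log2 0.10, −0.02 to 0.23) against −0.46 in the others. The direction of *Ifng* differed by cycling, with 559 and 636.5 CPM in selected cells that cycled and 895 and 705 CPM in the rest. Of 10 genes listed as inhibitory receptors 2 were higher, *Cd200* and *Cd200r1*, and 1 lower, *Entpd1*. *Cd200* encodes the ligand of the receptor encoded by *Cd200r1*, and *Entpd1* an enzyme, so that the list is not of receptors alone. *Lag3* was at −0.48 in selected and −0.90 in other cells, and *Havcr2* at −0.30 and −0.73.

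Of 8 type I interferon genes 4 were lower in obese selected cells and 0 higher, with a median of −0.47 against −0.07 in the other cells. The 4 were *Ifit1*, *Isg15*, *Isg20* and *Bst2*, and *Isg15*, a ubiquitin-like modifier, had 68.2 CPM in lean and 32.0 CPM in obese selected cells (log2 −1.09, −1.46 to −0.74), and −0.29 in the other cells. Of 8 metallothionein and hypoxia genes 5 were lower and 0 higher, with a median of −0.63 against −0.36. *Mt1* was 823 CPM in lean and 319 CPM in obese selected cells (log2 −1.37, −1.48 to −1.26) and −0.69 in the other cells, and *Mt2* was at −1.39 and −0.75. Of 12 adhesion and migration genes 4 were lower, *Ccr2*, *Cx3cr1*, *Ly6a* and *Ly6c2*. *Ccr2*, a receptor for monocyte chemokines, had 30.6 and 10.8 CPM in selected cells (log2 −1.51), where the others were at 0.41.

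Of 16 immediate early and heat shock genes 4 were higher and 0 lower, *Fosb*, *Junb*, *Dusp1* and *Zfp36*, with a median of 0.32 against 0.34 in the other cells. *Junb* had 569 CPM in lean and 945 CPM in obese selected cells (log2 0.73, 0.66 to 0.81), and 0.70 in the others. *Atf3*, a stress-induced transcription factor, had 22.2 and 84.7 CPM (log2 1.93, 1.62 to 2.24), against 0.31 in the others. Of 17 glycolysis genes 1 was lower, *Eno1* (−1.17 in selected and −1.10 in other cells), while its near-identical copy *Eno1b* was at 0.71 and 0.58. Some reads may fit both copies, so that the values of either gene are uncertain. Of 19 mitosis genes 0 were called, with a median of 0.01 where the other cells were at 0.33.

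Of 15 cytokine and chemokine genes 3 were higher in obese selected cells, *Xcl1*, *Csf2* and *Penk*, and 2 lower, *Ccl1* and *Ccl4*. *Xcl1* had 186 and 348 CPM (log2 0.90, 0.77 to 1.03), against −0.05 in the other cells. Its direction differed within the selected cells, with 189 and 472 CPM in those that cycled and 181 and 99.9 CPM in those that did not (log2 1.32 and −0.86), and 612 of its 839 obese UMIs lay in the 27 cells of 10 to 29 granzyme UMIs, with 26.9% in 1 cell. *Penk*, which encodes the enkephalin precursor, had 28.1 CPM in 38 lean and 108 CPM in 22 obese selected cells (log2 1.94, and 0.62 in the other cells), but 1 obese cell held 48.7% of the obese UMIs, and without the richest cell of each library the ratio was 1.37 (1.02 to 1.72). *Penk* also turned, to 44.2 and 24.97 CPM (log2 −0.82), in the selected cells that did not cycle. Of its 261 obese UMIs 230 lay in the 17 cells led by a Trbv segment other than *Trbv13-1*, and the obese cells led by *Trbv13-1* or with no segment had 15.9 and 17.1 CPM, below the lean level. *Csf2* was at 0.96 (1.40 in the other cells), and without the richest cells at −0.34 (−1.21 to 0.45). *Ccl4*, an inflammatory chemokine, was 2113 and 1276 CPM (log2 −0.73), close to the −0.66 of the other cells.

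The highest ratios by the fixed rule were those of *Gm43305* (2.02), *Penk*, *Atf3*, *Tff1* (1.87) and *Tctex1d2* (1.51), and the lowest those of *Mt2*, *Mt1*, *Eif2s3y* (−1.29, and −0.18 in the other cells), *Fgl2* (−1.27 and −0.37) and *Serpinb9b* (−1.18 and −3.46). *Gm43305* was as high among the other cells (2.10), whereas *Tff1*, a secreted trefoil peptide gene, was at 0.51 there, with 25.9 CPM in lean and 95.03 CPM in obese selected cells. *Dapl1*, a gene of memory T cells, had 6.63 and 40.3 CPM (log2 2.60, and −0.05 in the other cells), in 11 lean and 9 obese cells, with 62.9% of the obese UMIs in 1 cell and a ratio of 1.63 without the richest cells. Of 5 naive and memory genes 1 was higher and 2 lower in obese selected cells, with a median of −0.08 against −0.05 in the others. *Il7r* went the other way from *Dapl1*, at 20.5 and 11.2 CPM in selected cells that cycled and 42.6 and 17.5 CPM in the rest.

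**Figure D5:**
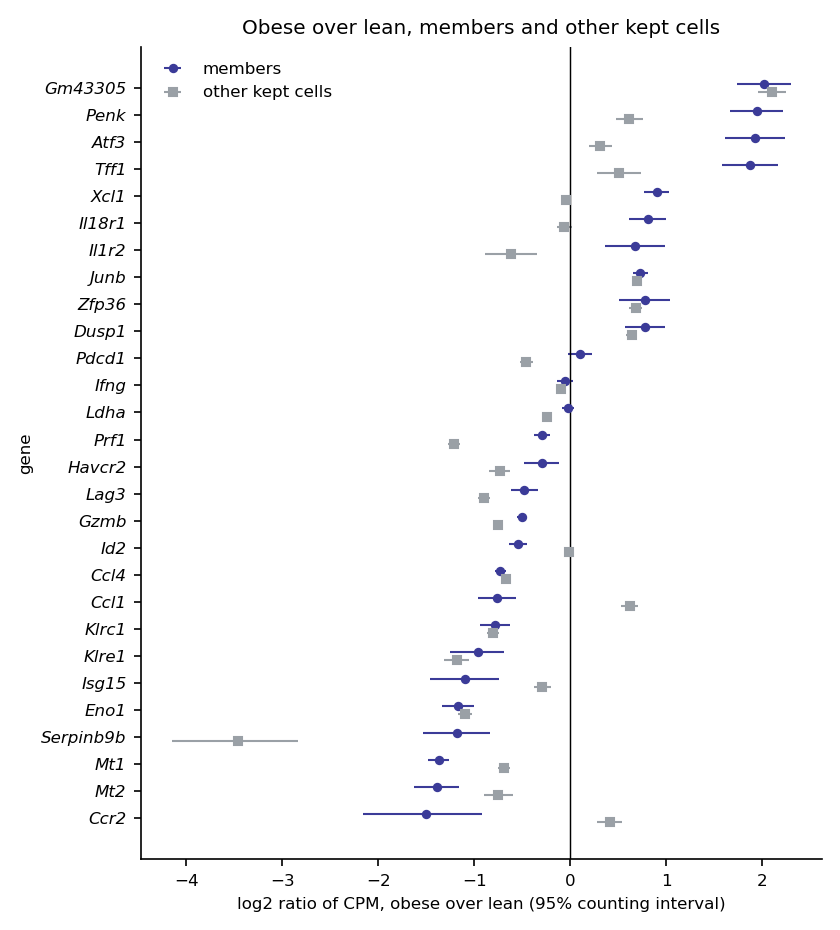
log2 ratios of CPM in obese over lean for 28 genes, as circles in selected cells (members) and squares in all other kept cells, with 95% counting intervals as bars. *Junb*, *Dusp1*, *Ccl4*, *Klrc1* and *Eno1* lie at about the same place in both sets, whereas *Penk*, *Atf3*, *Xcl1* and *Ccr2* lie apart, of which *Penk* and *Xcl1* turned direction in the selected cells that did not cycle (log2 −0.82 and −0.86).

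The T cell receptor V segments also differed. In 3′ data the segment is read in part of the cells, and a segment was taken as leading where it had more UMIs than any other. A leading Trbv segment was found in 155 lean selected cells, 66 of them with *Trbv2* (42.6%, 34.7% to 50.8%), against 172 of 745 other lean cells (23.1%) and 121 of 376 *Gzmb* cells (32.2%). It was found in 39 obese selected cells, 22 of them with *Trbv13-1* (56.4%, 39.6% to 72.2%), against 62 of 644 other obese cells (9.63%) and 13.0% of *Gzmb* cells. *Trbv13-1* led in 0 of 155 lean selected cells, which allows a share of up to 2.35%, and *Trbv2* in 2 of 39 obese ones (5.13%).

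Cells with a common segment may descend from a common cell, and such cells are then not independent of each other. Cells led by *Trbv2* held 21.6% of the lean UMIs of the 6 granzymes, and cells led by *Trbv13-1* held 31.6% of the obese ones. Of 16 obese selected cells with both a leading Trbv and a leading Trav segment, 5 paired *Trbv13-1* with *Trav7-6*, against 11 of 193 other obese cells. Of 58 such lean selected cells, 5 had each of the 3 most frequent pairs, none of which held *Trbv2*, while *Trbv2* with Trav6-5 was the most frequent pair of other lean cells (16 of 200). The 22 obese cells led by *Trbv13-1* had 770 CPM of *Gzmc* and 198 CPM of *Gzmf*, and the 17 led by another segment 487 and 265 CPM. The 66 lean cells led by *Trbv2* had 624 CPM of *Gzmc* and 1315 CPM of *Gzmf*. The 89 lean cells led by another segment had 1029 and 1133 CPM. *Gzmc* was thus above *Gzmf* in obese cells of either kind, and *Gzmf* above *Gzmc* in lean cells of either kind.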

How the data were processed

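CD8+ TIL of 1 lean and 1 obese library were profiled by droplet 3′ sequencing. The deposited values are whole-number UMI counts per gene and cell barcode, made by the authors with Cell Ranger 6.0.2 against mm10 per the submitters' processing notes and not normalised. The 5320 barcodes deposited, 2697 lean and 2623 obese, equal the number of cells the study states as analysed after its quality control. Its stated filter (under 7.5% of UMIs from mitochondrial genes, over 500 and under 50000 UMIs), applied here, leaves 4745. Cells that the study counted, among them those of 50000 or more UMIs, are thus left out here. Kept cells held 27815785 lean and 28705830 obese UMIs.

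The selection rule and gene lists were chosen with earlier results of these data known, and a few genes that are not reported here were taken out of the lists. UMIs were summed per library and set of cells, and genes at 20 CPM or more on 1 side were compared. Named genes are members of the lists and, per comparison, the 5 highest and 5 lowest by mean log2 ratio among genes with at least 50 CPM on 1 side and 20 UMIs on each side in each library, without mitochondrial, ribosomal and the 6 selecting genes. With 1 library per group there are no replicates and no p-values. No doublet caller was run and no doublets were removed. Leaving out cells with UMIs of another lineage was an alternative, as were thinning to 2000 UMIs, other limits on UMIs and TMM factors. Tools were Python 3.11.15, numpy 2.4.6, scipy 1.17.1, pandas 2.3.3, R 4.3.3 and edgeR 4.0.16 for TMM alone. Scripts were tested on simulated data.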

Additional observations from a re-analysis of the deposited data

Results flagged for a closer look

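Of the named genes, 6 differed between selected and other kept cells by a log2 ratio past 0.5 in opposite directions in the libraries, with counting intervals that left out 0. None of these differences was tested, since each library is a single sample. The share of all genes past the same limits was not worked out, so that the count describes the named genes only. *Atf3* was at a log2 ratio of selected over other cells of −0.96 in lean and 0.65 in obese cells. *Fcer1g*, a signalling chain shared by NK and myeloid receptors, was at 1.15 in lean and −1.43 in obese cells. *H2-Aa* and *H2-Ab1*, genes of MHC class II, were at 1.40 and −1.98 and at 1.32 and −0.90, and 1 lean cell held 36.9% of the lean UMIs of *H2-Aa* in selected cells. The heat shock genes *Hspa1a* and *Hspa1b* were at 1.32 and −2.03 and at 1.43 and −1.65, with 59.8% of the lean *Hspa1a* UMIs in 1 cell. *Hspa1a* was found in 6 lean and 5 obese selected cells, and *H2-Aa* in 18 and 6.

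For 2 named genes the ratio of obese over lean was past 0.5 one way in selected cells and past 0.5 the other way in the rest, by the same limit. Genes with opposite signs but a smaller ratio on 1 side, such as *Ccr2* (−1.51 and 0.41), are not counted. *Ccl1*, a chemokine of activated T cells, was at −0.76 in selected and 0.62 in other cells, and 1 lean selected cell held 33.3% of its lean UMIs. *Il1r2* was at 0.68 in selected and −0.61 in other cells. These differences were not tested either, and the share of all genes past the same limits was not worked out.

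Many of the cells left out for having 50000 or more UMIs also met the granzyme rule, 69 of 83 in the lean library (83.1%) and 48 of 121 in the obese library (39.7%). The lean ones had a median of 65504 UMIs, 753 CPM of *Gzmc*, 746 CPM of *Gzmf* and 2594 CPM of *Gzmb*, and 88.4% were cycling. The obese ones had a median of 75816.5 UMIs, 172 CPM of *Gzmc*, 163 CPM of *Gzmf* and 1065 CPM of *Gzmb*, and 97.9% were cycling. Whether these barcodes held more than 1 cell was not tested.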

How the results depend on the processing

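Of 122 alternative values, 57 lay inside the interval of the value given above or, for counts of genes, within 1.5 times of the count. The other 65 moved beyond that. Shares of cells and counts of genes have no sign, so that a reversal could apply to log2 ratios alone. Of these ratios 0 changed sign. Counts of genes whose balance of directions turned, as given below, were scored as moved. The limits to at least 10000 UMIs, to no upper limit, without the 10 richest cells, without the richest cell for a gene, by cycling for genes other than *Gzmb* and the 6 granzymes, by size alone and without the cells led by *Trbv2* (lean) or *Trbv13-1* (obese) were chosen after seeing the data. No paired analysis was possible because each group had 1 library, and for the same reason no replicate could be left out. Depth limits these results, since a rule on UMIs takes deep cells. Thinned cells left 129 lean and 19 obese selected cells, in which 1 UMI is 3.88 and 26.3 CPM.

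The lean share of selected cells (11.4%) was 17.5% from 1 UMI, 7.49% from 10 UMIs, 5.54% thinned, 13.1% in all deposited cells, 28.2% among cells of at least 10000 UMIs, 13.7% with no upper limit and 9.60% without the Trbv-led cells. The obese share (3.45%) was 6.73%, 2.23%, 0.873%, 4.99%, 7.67%, 5.27% and 2.59% in that order. The lean share was the higher one in each.

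The log2 ratio of obese over lean for the 6 genes in selected cells (−1.13) was −1.42 from 1 UMI, −0.47 thinned, −1.69 in all deposited cells, −1.004 in cells under the cycling limit, −1.70 with no upper limit and −1.66 without the 10 richest cells. That of *Gzmb* (−0.50) was −0.69 from 1 UMI, −0.42 thinned, −0.97 in all deposited cells, −0.55 with TMM factors, −0.25 under and −0.68 over the cycling limit, −0.97 with no upper limit, −0.63 without the 10 richest cells and −0.74 without the Trbv-led cells.

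*Gzmb* in selected over other cells (lean 1.78, obese 2.03) was 2.10 and 2.48 thinned, 1.73 and 1.502 in all deposited cells, 1.70 and 1.97 with totals lacking the 6 granzymes and the mitochondrial and ribosomal genes, and 2.16 and 2.22 as a mean over cells. It was 2.38 and 3.04 under the cycling limit, 1.16 and 1.24 over it, 1.44 and 1.85 from 10000 UMIs, 1.72 and 1.49 with no upper limit, 1.75 and 1.87 without the 10 richest cells, and 1.89 and 1.83 without the Trbv-led cells. In obese cells it was 1.74 from 1 UMI and 2.08 from 10 UMIs.

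The cycling share of selected cells (lean 53.4%, obese 59.5%) was 59.8% and 74.0% in all deposited cells, 60.3% and 74.0% with no upper limit, 67.7% and 79.7% at a limit of 0.1%, and 35.1% and 39.2% at 0.4%. Called genes against other cells (32 higher and 109 lower, 141 in all) were 336 thinned, 274 higher and 62 lower with 55 shared, and 324 from 5 CPM, 85 higher and 239 lower. Against *Gzmb* cells (27) they were 217 thinned, 197 higher and 20 lower with 10 shared, and 83 from 5 CPM. For obese over lean (451) they were 154 thinned, 124 higher and 30 lower with 40 shared, and 833 from 5 CPM. Thinning thus turned the balance of directions against both sets of cells. A gene without UMIs in the thinned selected cells could not be called lower. The causes were not tested.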
